A study of Mus musculus with 4 samples.

Results

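Interferon-stimulated genes are the genes that cells switch on when interferon binds its receptor. The 49 genes followed here were taken by name from those that carry out, sense or regulate that response, and a gene counted as measured where the array's annotation gave a probe set exactly 1 gene symbol. On that rule 44 of the 49 genes were measured, out of 19920 genes on the array with such a probe set. Ifi44, Isg15, Irgm2, Igtp and Gbp2 had no single-gene probe set. Ddx58 is the gene of the RNA sensor RIG-I.

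The study hybridised RNA to 4 arrays (Affymetrix Mouse Gene 1.0 ST), whose probes are spread along whole transcripts. The arrays labelled GABPα-deficient (2 arrays) came from Mx1Cre-GABPa(FL/-) mice, which carry 1 floxed and 1 null allele of Gabpa, and the control arrays (2 arrays) from Mx1Cre-GABPa(FL/+) mice, which carry 1 floxed and 1 wild-type allele. GABP is a transcription factor of the ETS family, and Gabpa codes for the subunit of it that binds DNA. Mice of both groups were 6 to 8 weeks old, from a C57/BL6 backcross of 4 generations, and all carried the Mx1Cre transgene and received pIpC. The cells were Flt3(-) LSK marrow cells, that is cells with surface Sca-1 and Kit and with neither lineage markers nor Flt3, a fraction rich in blood stem cells. They were sorted 4 days after the last pIpC treatment, and 800 pg to 50 ng of RNA was amplified. Whether a sample was 1 animal or a pool is not stated in the labels, so p-values here reflect the spread among these samples alone, and that spread may be technical.

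pIpC is a synthetic double-stranded RNA. Cells sense it through the endosomal receptor TLR3 and the cytoplasmic helicases MDA5 and RIG-I, and answer with type I interferon, which binds the receptor chains IFNAR1 and IFNAR2 and acts through the kinases JAK1 and TYK2. STAT2 and IRF9 then act in the complex ISGF3, which binds the interferon-stimulated response element (ISRE) in promoters, while the GAS element is known from genes induced by interferon gamma. In marrow, interferon alpha is known to push dormant stem cells into cycle. The Mx1 promoter is itself interferon-inducible, which is why pIpC switches on Mx1-Cre in these mice. No array of mice without pIpC was analysed here, so the response to pIpC itself was not measured, and the comparison shows how far its genes differed by genotype 4 days later.

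Values are on the log2 scale, on which a step of 1 is a 2-fold step, and differences are the arrays labelled deficient minus control. Gabpa itself read 6.43 and 7.85 on the arrays labelled deficient and 8.43 and 7.28 on the control arrays. The groups overlapped, and the difference was −0.71 (SE 0.68), which was 0.00 without deficient replicate 1 and −0.13 without control replicate 1. Where its probes lie relative to the deleted part of the gene is not known here, so these values do not check the deletion, and the groups are called by their labels. Genes of the sort and of other cells differed between the groups as labelled. The counts that follow are at an unadjusted p under 0.05 in limma's fit, which 6.37% of all 19920 genes passed as lower and 6.99% as higher. Of 8 measured stem and progenitor genes 7 were lower, Kit among them. The summed level of the 8 genes was 1229 to 1497 on the arrays labelled deficient and 6018 to 6628 on the control arrays. Kit, which the sort requires, read 7.70 and 8.50 on the arrays labelled deficient and 10.21 and 10.21 on the control arrays. Flt3, whose surface protein the sort leaves out, read 5.68 and 5.95 on the arrays labelled deficient and 8.43 and 9.26 on the control arrays. By the same rule 8 of 12 erythroid markers were higher, with a summed level of 15960 to 17257 on the arrays labelled deficient and 4742 to 4918 on the control arrays. Higher too were 5 of 12 macrophage markers (1831 to 3040 against 930 to 1080), 6 of 12 stromal and endothelial markers (2630 to 3154 against 893 to 1008), 3 of 9 B and plasma cell markers (2238 to 2795 against 1120 to 1743) and 3 of 10 T and NK cell markers, whose sum was lower (1002 to 1190 against 1659 to 1836). In that list 8 of 10 differences were above 0, and the brightest gene, Nkg7, read 9.45 and 7.44 on the arrays labelled deficient and 10.53 and 10.33 on the control arrays. Of 11 monocyte and granulocyte markers 2 were lower and 0 higher (8951 to 12225 against 11558 to 13010). In that list 7 differences were below 0 and 4 above. Csf3r and Mpo differed by −1.04 and −0.86, and S100a8, S100a9 and Ltf by 0.78, 1.0 and 0.81. Of 10 dendritic cell markers 2 were higher (Zbtb46 and Clec9a) and 1 lower (Flt3), with 8 of 10 differences above 0. Their sums were 835 to 1121 against 1134 to 1528. Sums are of linear values, with the arrays labelled deficient first. The lowest value of any probe set was 1.98 to 2.16 on the 4 arrays, so a value above 0 does not show that a marker was expressed. Some markers were dim, such as Ms4a1 at 3.96 to 4.23. The markers were compared between the same arrays as every result that follows, and their part in the results was not tested.

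Interferon-stimulated genes were not uniformly lower or higher on the arrays labelled deficient. At an unadjusted p under 0.05 in limma's fit, 10 of the 44 measured genes were lower (Irgm1, Sp100, Oasl2, Ifnar2, Parp9, Ddx58, Usp18, Stat2, Irf9 and Ifitm1) and 2 were higher (Ubd and Isg20). The 10 lower genes are 22.7% of the 44, against 5.25% of all 35556 probe sets and 6.37% of the 19920 genes. The 2 higher genes are 4.55%, against 6.64% of probe sets and 6.99% of genes, a share near the background. At an adjusted p under 0.05 limma called none of the 44 genes and 0% of all probe sets, with a lowest adjusted p of 0.173 among the 44 genes and 0.169 among all probe sets, while 1865 probe sets were lower and 2360 higher at an unadjusted p under 0.05. Over all probe sets that split depended on scaling, with 2349 lower and 1191 higher after cyclic loess and 2185 lower and 1537 higher after subtraction of column medians, while the 12 genes named here kept their calls under both. In bulk RNA such as this, fewer cells of a type and less RNA per cell cannot be told apart.

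The median difference of the 44 genes was −0.26, against 0.16 for all 19920 genes, which is −0.42 relative to them. Of the 44 genes 32 had a difference below 0 and 12 above it, whereas 6445 of all genes were below 0 and 13475 above. The groups did not overlap for 18 genes that were lower, against 14.0% of probe sets and 15.2% of genes in all, and for 5 that were higher, against 38.9% of probe sets and 42.9% of genes. Brightness bears on this background, since 9.93% of all genes in the brighter 50% of probe sets were lower at an unadjusted p under 0.05, against 1.71% of those in the dimmer 50%. Among members the count was 9 of 32 in the brighter and 1 of 12 in the dimmer 50%. The median over the 44 genes was 6.66 and 6.59 on the arrays labelled deficient and 6.76 and 6.96 on the control arrays. The summed linear level was 15067 and 14326 on the arrays labelled deficient and 17519 and 18550 on the control arrays.

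**Figure D1:**
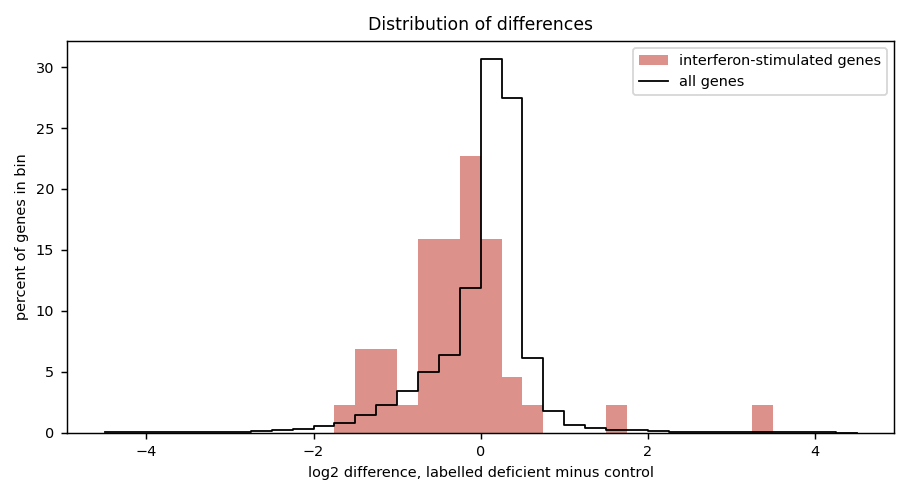
Share of genes in each bin of the log2 difference, arrays labelled deficient minus control. Filled bars are the 44 interferon-stimulated genes and the black line is all 19920 genes, of which bins between −4.5 and 4.5 are drawn. The filled bars lie mostly left of the black line, with medians of −0.26 and 0.16, and single genes, Isg20 and Ubd, stand at 1.52 and 3.25.

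The count changed with 1 array left out, but such a fit has 1 array in a group and less power to pass a threshold. With 1 array left out it ran from 6 to 8 lower and from 2 to 3 higher, and it was 6 lower without control replicate 1 and also 6 without control replicate 2. Irgm1, Oasl2, Ddx58, Parp9, Isg20 and Ubd kept an unadjusted p under 0.05 whichever array was left out. Sp100 kept it in 3 of the 4 fits. Ifitm1, Irf9, Stat2, Usp18 and Ifnar2 kept it in 1. Over the fits with 1 array left out, Ifitm1 differed by −0.60 to −0.39 and Irf9 by −0.65 to −0.40. Stat2 differed by −0.79 to −0.52, Usp18 by −1.02 to −0.45 and Ifnar2 by −1.89 to −0.76. With a replicate block 6 genes were lower and 2 higher.

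**Figure D2:**
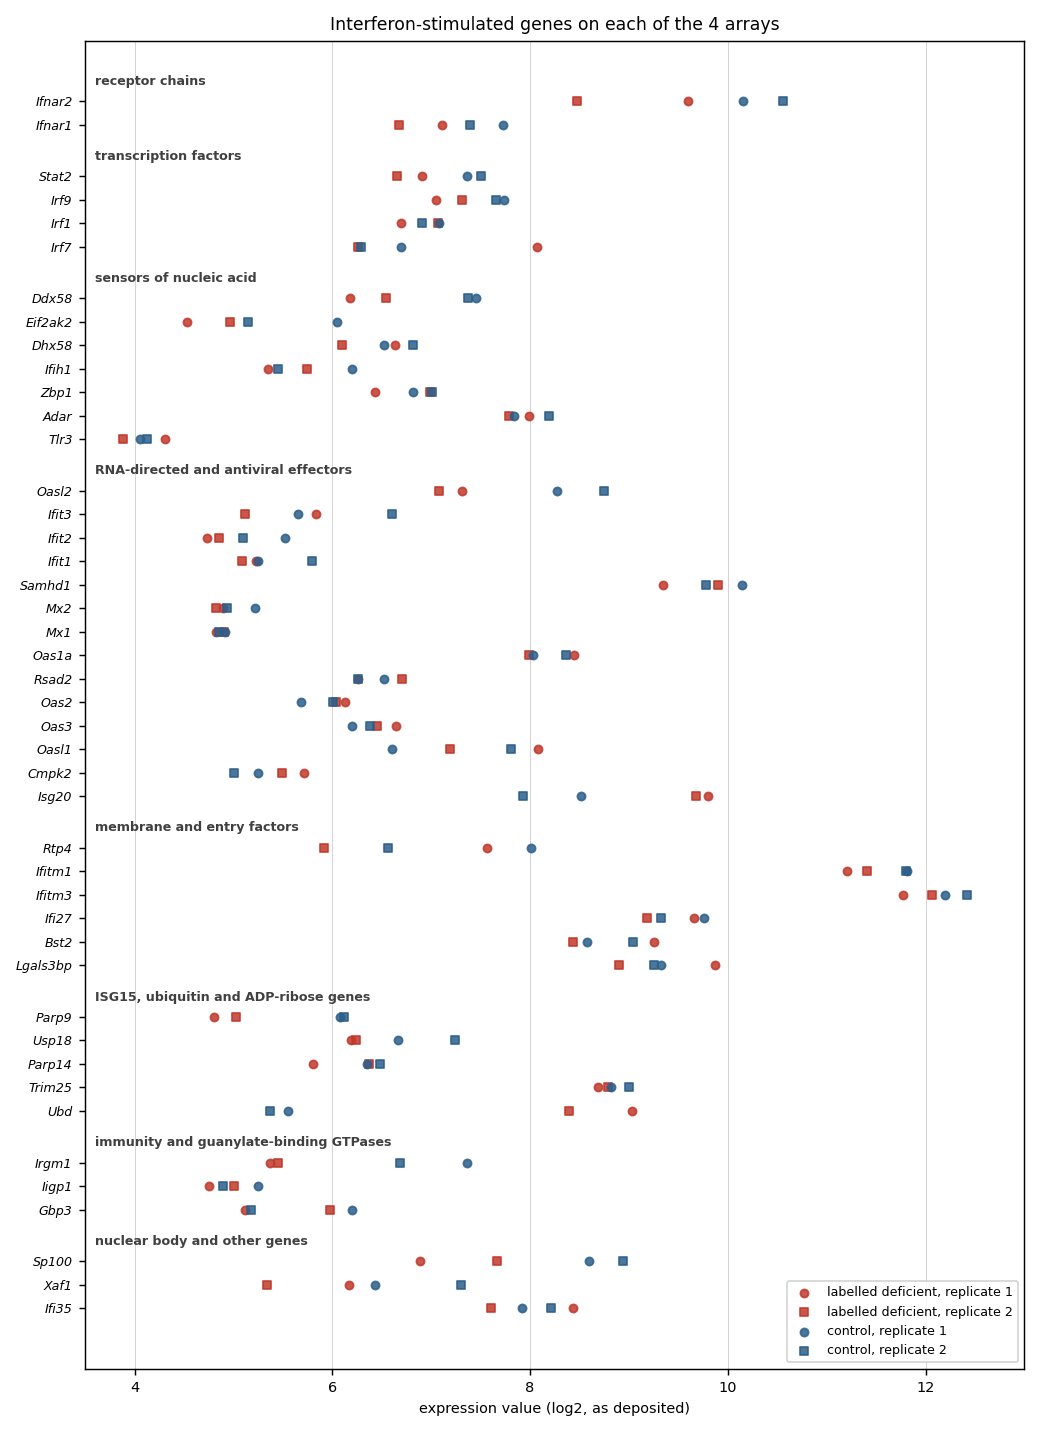
Log2 expression value of each of the 44 measured genes on each array, grouped by role. Red points are the 2 arrays labelled deficient, blue points the 2 control arrays, and circles and squares are replicates 1 and 2. Red and blue stand well apart for Ubd, Irgm1, Oasl2, Parp9, Ddx58, Sp100 and Isg20, while Irf7 and Rtp4 have 1 array labelled deficient far from the other.

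To see what the promoters of these genes share, the stretch from 250 bases before to 50 bases after each gene start was searched on both strands for the core of the ISRE (TTTC, any 2 bases, then TTTC again), for TTCNNNGAA (the GAS core, whose set letters are the same on both strands) and for CCGGAAG (an ETS core of the kind GABP binds). RefSeq promoters of the build GRCm38.p6 matched 38 of the 49 genes. Mx1, Mx2, Oas2, Usp18, Dhx58, Rtp4, Ifi27, Iigp1, Parp9, Parp14 and Zbp1 were not matched. The ISRE core was found for 17 of the 38 genes (44.7%), against 3.99% of all 27025 genes with a promoter in the table. The GAS core was found for 14 of 38 (36.8%, against 9.55%) and the ETS core for 4 of 38 (10.5%, against 9.93%), namely Ifih1, Ifit2, Ifnar1 and Rsad2. Matches were counted wherever they overlapped one another, as ISRE and GAS matches do in Bst2 and Ifitm3. A match describes letters in a window and is neither a binding site nor a cause.

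**Figure D3:**
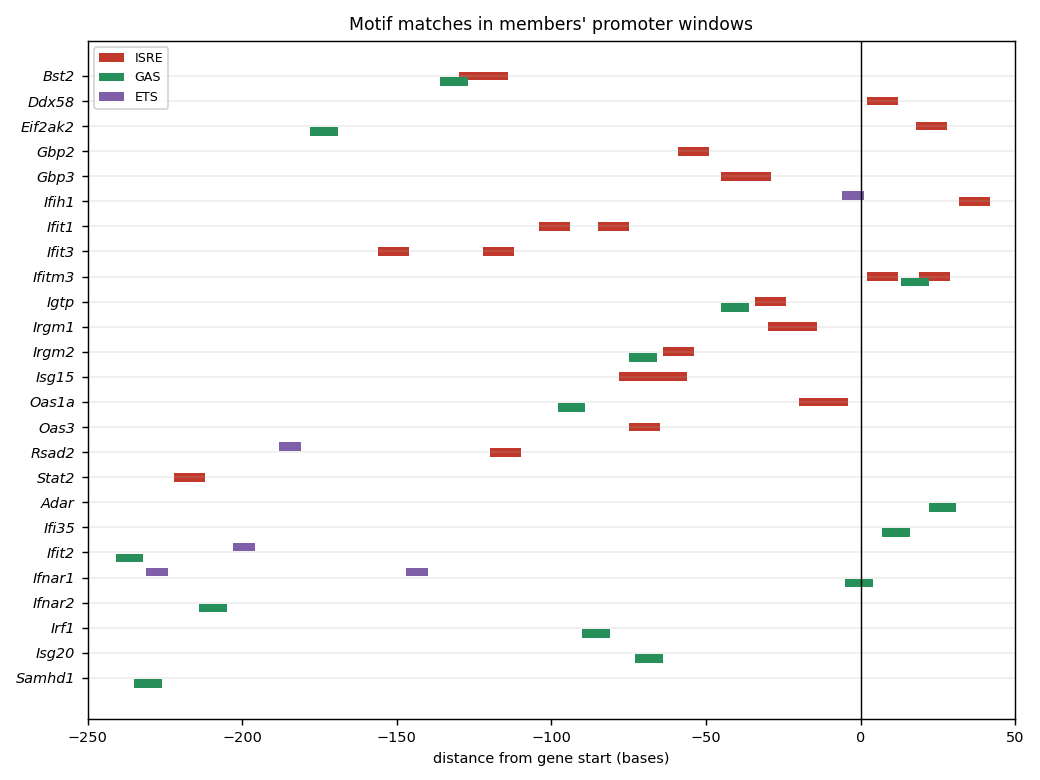
Position of motif matches relative to the gene start (0) in the promoter windows of the interferon-stimulated genes that held at least 1 match. Red bars are the ISRE core, green bars the GAS core and purple bars the ETS core, each drawn at its length in bases. Red bars of Ddx58, Eif2ak2, Ifih1 and Ifitm3 lie after the gene start and all others before it, with Stat2 the farthest at −222.

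The windows below are those of genes whose differences are set against each other in what follows. They run 5′ to 3′ along the gene's strand, 60 bases each, with the ISRE core in capitals (the GAS core for Isg20). Irgm1, Igtp, Irgm2, Gbp2, Ddx58 and Stat2 come first, being genes with lower readings on their own or a shared probe set, then Gbp3, Ifit1, Isg15, Oas1a and Bst2, whose readings did not pass an unadjusted p under 0.05, and then Isg20, which was higher.
Irgm1: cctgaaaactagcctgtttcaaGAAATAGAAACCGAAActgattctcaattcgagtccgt
Igtp: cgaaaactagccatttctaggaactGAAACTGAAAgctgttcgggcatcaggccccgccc
Irgm2: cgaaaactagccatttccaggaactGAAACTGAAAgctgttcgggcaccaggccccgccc
Gbp2: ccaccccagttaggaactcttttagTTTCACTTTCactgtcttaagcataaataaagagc
Ddx58: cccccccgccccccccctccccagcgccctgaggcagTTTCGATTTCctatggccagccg
Stat2: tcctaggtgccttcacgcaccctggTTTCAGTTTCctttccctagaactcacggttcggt
Gbp3: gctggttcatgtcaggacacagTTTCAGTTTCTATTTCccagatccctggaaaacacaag
Ifit1: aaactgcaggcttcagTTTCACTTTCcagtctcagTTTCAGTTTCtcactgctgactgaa
Isg15: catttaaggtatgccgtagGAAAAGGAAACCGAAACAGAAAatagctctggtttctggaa
Oas1a: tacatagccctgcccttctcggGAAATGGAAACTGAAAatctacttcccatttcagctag
Bst2: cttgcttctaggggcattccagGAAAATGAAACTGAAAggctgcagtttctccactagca
Isg20: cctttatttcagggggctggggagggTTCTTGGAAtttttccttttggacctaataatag

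On GRCm38.p6 these windows lie on the plus strand at chr11:58199497-58199556 (Igtp), chr11:58214888-58214947 (Irgm2), chr3:142620579-142620638 (Gbp2), chr3:142559977-142560036 (Gbp3), chr10:128270251-128270310 (Stat2), chr19:34640769-34640828 (Ifit1) and chr7:78913325-78913384 (Isg20). On the minus strand they lie at chr11:48871413-48871472 (Irgm1), chr4:40239801-40239860 (Ddx58), chr4:156200856-156200915 (Isg15), chr5:120907508-120907567 (Oas1a) and chr8:71537565-71537624 (Bst2). The windows of Irgm1, Isg15, Oas1a, Bst2 and Gbp3 hold overlapping matches, seen as longer runs of capitals. Those of Ddx58, Irgm1, Oas1a and Igtp reach to or past the gene start. At an unadjusted p under 0.05 in limma's fit, which 6.37% of all genes passed as lower and 6.99% as higher, 3 of the 13 measured genes with an ISRE core were lower (Irgm1, Ddx58 and Stat2) and 0 higher, with a median difference of −0.36. Of the 20 measured genes whose window held none, 5 were lower and 2 higher, with a median of −0.15. The difference between these medians was not tested.

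Among the receptor chains, both genes read lower on the arrays labelled deficient. Ifnar2, the chain that holds STAT2, read 9.60 and 8.47 on the arrays labelled deficient and 10.15 and 10.56 on the control arrays. Both control arrays were the higher, but the arrays labelled deficient stood 1.13 apart. The means were 9.03 ± 0.80 and 10.36 ± 0.29 (SD, n = 2 each). The difference was −1.32 (SE 0.46, limma adjusted p = 0.417), and −0.76 without deficient replicate 2. Ifnar1, the other chain, read 7.11 and 6.67 on the arrays labelled deficient and 7.73 and 7.39 on the control arrays, again without overlap. Its difference was −0.67 (SE 0.24, adjusted p = 0.421) and did not pass an unadjusted p under 0.05. Both genes lie close together on chromosome 16 with 1 protein-coding gene between them.

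Of the transcription factors, the ISGF3 genes Stat2 and Irf9 were lower by smaller amounts. Stat2 read 6.91 and 6.65 on the arrays labelled deficient and 7.36 and 7.50 on the control arrays, a difference of −0.65 (SE 0.17, adjusted p = 0.397). Irf9, which brings the complex to DNA, read 7.05 and 7.31 on the arrays labelled deficient and 7.74 and 7.66 on the control arrays, a difference of −0.53 (SE 0.17, adjusted p = 0.408). For both genes the groups did not overlap and the gap within a group was at most 0.26. Irf7, which amplifies interferon production, read 8.07 and 6.26 on the arrays labelled deficient and 6.69 and 6.29 on the control arrays. Only deficient replicate 1 was high, and the difference of 0.67 (SE 0.69) became −0.23 without it. Irf1, a factor induced by interferon gamma, had overlapping groups on both its probe sets, with differences of −0.11 (SE 0.20) and −0.08 (SE 0.43).

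Among the sensors of foreign RNA and DNA, Ddx58 stood apart from its relatives. It read 6.18 and 6.54 on the arrays labelled deficient and 7.45 and 7.37 on the control arrays. The closest values of the groups were further apart than the gaps within them. The means were 6.36 ± 0.25 and 7.41 ± 0.060 (SD, n = 2 each), a difference of −1.05 (SE 0.19, adjusted p = 0.317). The helicases Ifih1 (MDA5) and Dhx58 (LGP2, a regulator of both) differed by −0.28 (SE 0.33) and −0.31 (SE 0.26), with overlapping groups. Ifih1 ran from −0.66 to 0.09 and Dhx58 from −0.57 to −0.04 with 1 array left out. Whether they differed less than Ddx58 was not tested. Eif2ak2, the RNA-activated kinase PKR that halts translation, read 4.53 and 4.97 on the arrays labelled deficient and 6.05 and 5.15 on the control arrays. Its difference of −0.85 (SE 0.39) was −0.40 without control replicate 1. Zbp1, a sensor of Z-form nucleic acid, Adar, which edits double-stranded RNA, and Tlr3 had overlapping groups and differences between −0.21 and 0.00.

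The RNA-directed and antiviral effectors formed the largest group, of 14 genes, and were divided, with 7 below and 7 above 0. Over all 19920 genes 6445 were below 0 and 13475 above. After cyclic loess Oas1a and Rsad2, which lay just above 0, turned to −0.02 and −0.07. Oasl2, a 2′-5′ oligoadenylate synthetase-like protein, read 7.31 and 7.08 on the arrays labelled deficient and 8.27 and 8.75 on the control arrays. All values of the arrays labelled deficient lay below the control values. The means were 7.19 ± 0.17 and 8.51 ± 0.33 (SD, n = 2 each), a difference of −1.32 (SE 0.23, adjusted p = 0.315). Its neighbour Oasl1, with no gene between them, read 8.08 and 7.19 on the arrays labelled deficient and 6.60 and 7.81 on the control arrays, so its groups overlapped. The Oasl1 difference was 0.42 (SE 0.56), and −0.18 without control replicate 1 and −0.02 without deficient replicate 1.

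The Oas genes make the 2′-5′ oligoadenylates that activate RNase L. Oas2 differed by 0.24 (SE 0.18) and Oas3 by 0.25 (SE 0.17), both with the arrays labelled deficient on the higher side, and Oas1a by 0.02 (SE 0.24) with overlapping groups. After cyclic loess the Oas2 and Oas3 differences shrank to 0.04 and 0.09 and Oas1a turned to −0.02. A probe set shared by Oas1a and Oas1g read 8.18 and 8.03 on the arrays labelled deficient and 8.25 and 8.47 on the control arrays, without overlap, a difference of −0.25 (SE 0.17). The Oas1a promoter holds overlapping ISRE cores, as that of Irgm1 does.

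The Ifit genes, whose proteins bind viral RNA ends and block translation, read low on all arrays, 3 of 3 in the dimmer 50% of probe sets. Ifit1 read 5.23 and 5.09 on the arrays labelled deficient and 5.25 and 5.79 on the control arrays. Ifit2 read 4.73 and 4.85 on the arrays labelled deficient and 5.52 and 5.10 on the control arrays. Ifit3 read 5.84 and 5.12 on the arrays labelled deficient and 5.65 and 6.60 on the control arrays. The differences were −0.36 (SE 0.24), −0.52 (SE 0.21) and −0.64 (SE 0.45), and only the Ifit3 groups overlapped. Without control replicate 2 Ifit1 and Ifit3 differed by −0.09 and −0.17, and without control replicate 1 Ifit2 differed by −0.31. After cyclic loess Ifit2 differed by −0.74, at an unadjusted p under 0.05.

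Mx1, whose promoter drives the Cre of these mice, read 4.82 and 4.90 on the arrays labelled deficient and 4.91 and 4.85 on the control arrays, a difference of −0.02 (SE 0.14). Its 4 values lay between 4.82 and 4.91 and the groups overlapped. C57BL/6 mice are known to carry a defective Mx1 allele. Mx2, its relative, differed by −0.23 (SE 0.17). After cyclic loess the Mx1 and Mx2 differences were −0.23 and −0.44. Both were in the dimmer 50% of probe sets.

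Isg20, an RNA exonuclease, went the other way from Oasl2. It read 9.80 and 9.68 on the arrays labelled deficient and 8.52 and 7.93 on the control arrays. The means were 9.74 ± 0.088 and 8.22 ± 0.42 (SD, n = 2 each), a difference of 1.52 (SE 0.26, adjusted p = 0.303), and the lowest value with 1 array left out was 1.23. Its promoter held a GAS core and no ISRE core. Cmpk2, a mitochondrial nucleotide kinase, differed by 0.47 (SE 0.18) without overlap, and by 0.25 after cyclic loess, and its neighbour Rsad2, which encodes the radical-SAM enzyme viperin, by 0.09 (SE 0.23) with overlap. Samhd1, which breaks down deoxynucleotides, differed by −0.34 (SE 0.28) with overlapping groups.

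**Figure D4:**
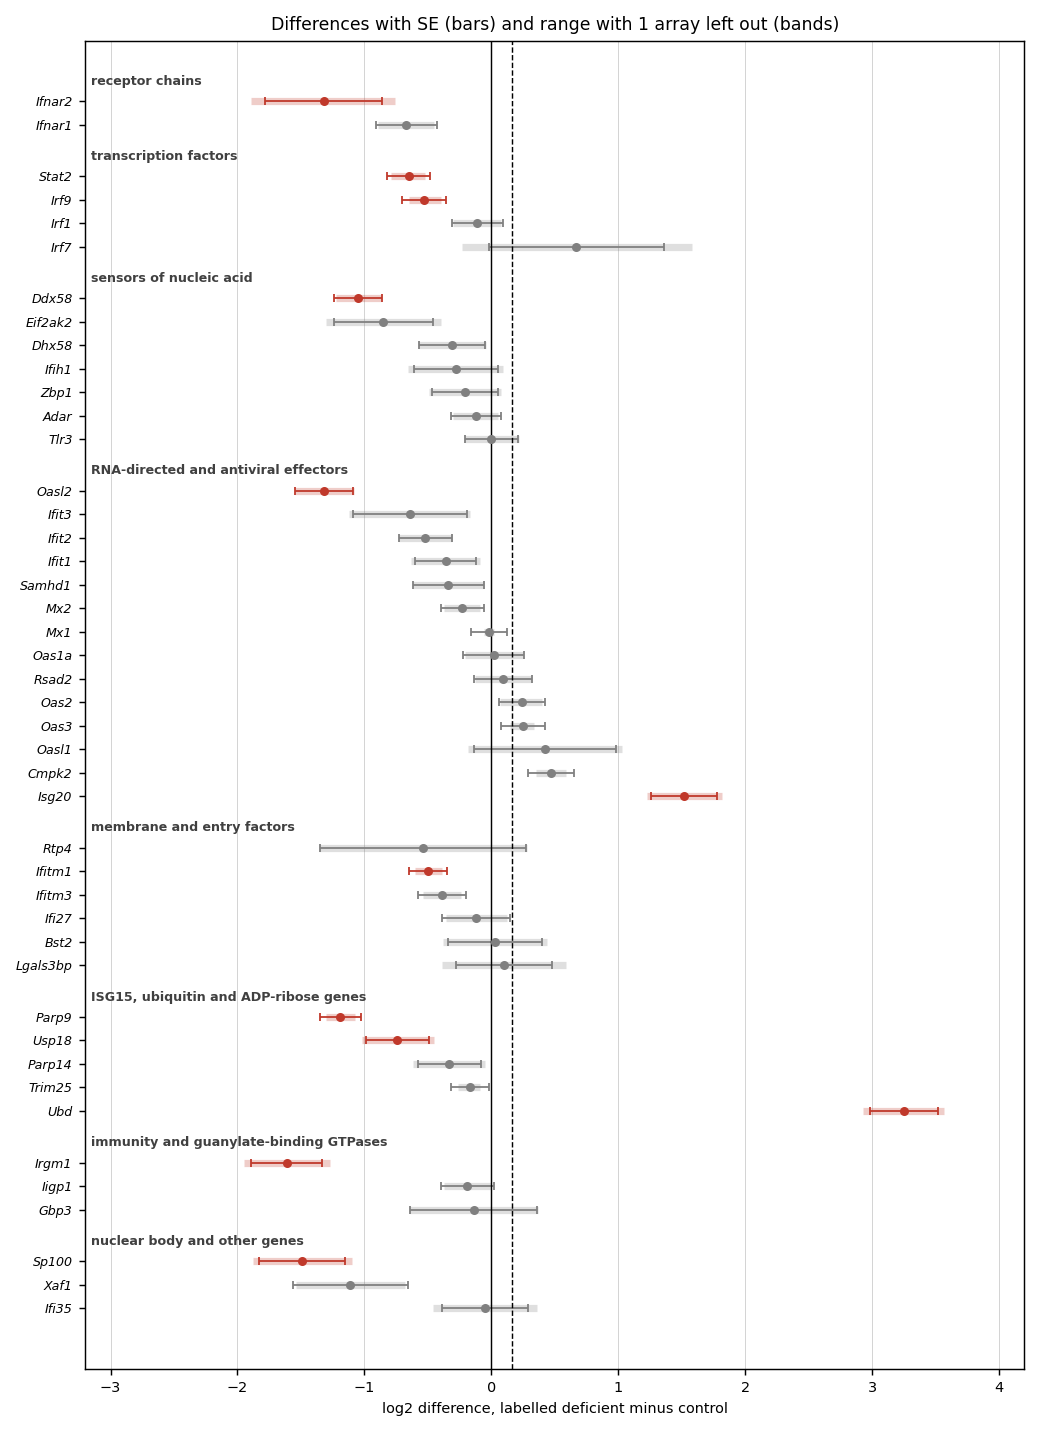
Log2 difference of each measured gene, arrays labelled deficient minus control, grouped by role. Points with bars are the difference and its SE, wide pale bands the range when 1 array is left out, red marks an unadjusted p under 0.05, and the dashed line is the median of all genes, 0.16. Ubd and Isg20 lie alone on the right at 3.25 and 1.52, and Irgm1, Sp100, Oasl2, Ifnar2, Parp9 and Ddx58 lie farthest left among the red points, at −1.61 to −1.05.

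Of the 6 membrane genes 1 was lower at an unadjusted p under 0.05 (16.7%, against 6.37% of all genes). Ifitm1, which blocks fusion of viruses with the cell membrane, was measured by 2 probe sets. On the brighter it read 11.21 and 11.41 on the arrays labelled deficient and 11.81 and 11.80 on the control arrays, a difference of −0.50 (SE 0.15, adjusted p = 0.408), and the other probe set differed by −0.63 (SE 0.17). Both probe sets separated the groups. Ifitm3, its neighbour and a restriction factor of endosomes, read 11.77 and 12.07 on the arrays labelled deficient and 12.20 and 12.42 on the control arrays, a difference of −0.39 (SE 0.19) that did not pass an unadjusted p under 0.05. Bst2 (tetherin, which holds budding virus at the cell surface), Lgals3bp, a secreted glycoprotein, Ifi27 and Rtp4 had overlapping groups, with differences between −0.54 and 0.10. The Rtp4 arrays differed by 1.64 within the group labelled deficient and by 1.45 within the control group, more than the difference of −0.54 (SE 0.81).

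Ubd gave the largest difference of the 44 genes. It encodes FAT10, a ubiquitin-like protein that marks proteins for the proteasome and is induced by interferon gamma and TNF. It read 9.03 and 8.39 on the arrays labelled deficient and 5.55 and 5.37 on the control arrays. The lowest value on the arrays labelled deficient was far above the highest control value. The means were 8.71 ± 0.45 and 5.46 ± 0.13 (SD, n = 2 each), a difference of 3.25 (SE 0.27, adjusted p = 0.173), and with 1 array left out it stayed between 2.93 and 3.57. Its promoter window held none of the motifs searched. Of the 10 dendritic cell markers given above 2 were higher and 1 lower, and 8 of the 10 differences were above 0. Their summed level was lower on the arrays labelled deficient, and it includes Flt3, which differed by −3.03. Bst2, 1 of the 44 genes, is also in that list. The part of these markers in the Ubd value was not tested.

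Other genes of protein modification were lower or overlapped. Parp9, a partner of the ubiquitin ligase DTX3L, read 4.80 and 5.03 on the arrays labelled deficient and 6.08 and 6.12 on the control arrays. The gap between the groups exceeded the gaps within them. The means were 4.91 ± 0.17 and 6.10 ± 0.031 (SD, n = 2 each), a difference of −1.19 (SE 0.16, adjusted p = 0.270). Parp14, an ADP-ribosyltransferase with 1 gene between it and Parp9, differed by −0.33 (SE 0.25) with overlapping groups. Usp18, which removes ISG15 from proteins and damps signalling at IFNAR2, read 6.19 and 6.24 on the arrays labelled deficient and 6.66 and 7.24 on the control arrays. Its difference was −0.74 (SE 0.25, adjusted p = 0.414), and −0.45 without control replicate 2. Trim25, a ubiquitin ligase of the RIG-I pathway, differed by −0.17 (SE 0.15). Isg15 was read only by a probe set shared with Gm9706, at 6.15 and 6.11 on the arrays labelled deficient and 6.63 and 5.94 on the control arrays, which overlapped.

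Interferon-inducible GTPases attack vacuoles that hold microbes, and IRGM1 is also known to be needed for quiescent, self-renewing blood stem cells in mice. Irgm1 read 5.37 and 5.45 on the arrays labelled deficient and 7.36 and 6.68 on the control arrays. Both arrays labelled deficient lay well below both control arrays. The means were 5.41 ± 0.059 and 7.02 ± 0.49 (SD, n = 2 each), a difference of −1.61 (SE 0.28, adjusted p = 0.315), and with 1 array left out it ran from −1.95 to −1.27. Irgm2 and Igtp shared 1 probe set, so their parts in it cannot be told apart, and their promoter windows printed above differ at 2 of 60 positions. That probe set read 7.74 and 7.75 on the arrays labelled deficient and 8.88 and 8.89 on the control arrays, a difference of −1.14 (SE 0.13, adjusted p = 0.235). The probe set shared by Gbp2 and Gbp2b read 4.90 and 5.49 on the arrays labelled deficient and 7.65 and 7.16 on the control arrays, a difference of −2.21 (SE 0.31, adjusted p = 0.277). Both shared probe sets had an unadjusted p under 0.05 and lie outside the count of 44 genes. Iigp1 and Gbp3 had differences of −0.19 (SE 0.21) and −0.14 (SE 0.50) and overlapping groups, and Gbp3 ran from −0.64 to 0.37 with 1 array left out. Whether they differed less than the other GTPases was not tested.

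Sp100, a scaffold of PML nuclear bodies, read 6.89 and 7.67 on the arrays labelled deficient and 8.60 and 8.94 on the control arrays. The groups did not overlap. The means were 7.28 ± 0.56 and 8.77 ± 0.24 (SD, n = 2 each), a difference of −1.49 (SE 0.34, adjusted p = 0.370). A second probe set, shared with 4 other gene names, differed by −0.33 (SE 0.14). Xaf1, an antagonist of the apoptosis inhibitor XIAP, read 6.17 and 5.34 on the arrays labelled deficient and 6.43 and 7.30 on the control arrays, a difference of −1.11 (SE 0.45) that was −0.68 without control replicate 2 and −0.70 without deficient replicate 2. Ifi35 overlapped, at −0.05 (SE 0.34).

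Other genes of the pathway were counted in the same way. Of 24 measured interferon signalling genes 7 were lower and 2 higher at an unadjusted p under 0.05 in limma's fit (29.2% and 8.33%, against 6.37% and 6.99% of all genes), with a median difference of −0.20. The lower count was 3 without control replicate 1, 3 without control replicate 2, 4 without deficient replicate 1 and 4 with a trended robust prior, and the higher count was 1 without either control replicate or deficient replicate 2. Tbk1, the kinase that activates IRF3, read 6.40 and 5.57 on the arrays labelled deficient and 7.88 and 7.86 on the control arrays, a difference of −1.89 (SE 0.33), and its relative Ikbke differed by −0.88 (SE 0.16). Stat3 differed by −1.05 (SE 0.26), Sting1, the adaptor of DNA sensing, by −0.68 (SE 0.16) and Ptpn6, the phosphatase SHP-1, by −0.60 (SE 0.14). Socs3, a feedback inhibitor of JAK signalling, read 7.12 and 7.17 on the arrays labelled deficient and 6.17 and 6.24 on the control arrays, a difference of 0.94 (SE 0.14), and 0.64 as a mean over its probe sets. Jak1 read 7.50 and 9.69 on the arrays labelled deficient and 10.33 and 9.81 on the control arrays, and its difference of −1.47 (SE 0.83) was −0.38 without deficient replicate 1. Tyk2, Irf3 and Irf8 differed by 0.13 (SE 0.32), 0.38 (SE 0.18) and −0.06 (SE 0.20), and only the Irf3 groups did not overlap.

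A further 44 measured interferon-stimulated genes outside the 49 counted 10 lower (22.7%) and 3 higher (6.82%) by the same rule, with a median difference of −0.06. The lower count was 5 and 4 without control replicates 1 and 2, 4 without deficient replicate 1 and 6 with a trended robust prior, and the higher count 1 without either control replicate. Tap1, the peptide transporter of antigen presentation, differed by −1.26 (SE 0.22), Trim21, an antibody receptor of the cytosol, by −1.53 (SE 0.42, and −1.0 without control replicate 1), Tdrd7 by −0.77 (SE 0.18) and the RNA helicase Mov10 by −0.61 (SE 0.14). Ifi30, the lysosomal thiol reductase GILT of antigen-presenting cells, read 9.86 and 9.58 on the arrays labelled deficient and 7.35 and 6.12 on the control arrays, a difference of 2.99 (SE 0.48). Ifit3b, a dim probe set, differed by 0.83 (SE 0.20). Like Ubd, Ifi30 was higher on the arrays labelled deficient, on which 5 of 12 macrophage and 8 of 12 erythroid markers were higher too. So were 6 of 12 stromal and endothelial, 3 of 9 B and plasma cell and 3 of 10 T and NK cell markers, the last with a lower sum. Other lists went differently. Of 10 dendritic cell markers 2 were higher and 1 lower, also with a lower sum. Of 11 monocyte and granulocyte markers 0 were higher and 2 lower, and of 8 stem and progenitor genes 7 were lower. These counts are at an unadjusted p under 0.05 in limma's fit, which 6.99% of all genes passed as higher and 6.37% as lower. The part of these markers in the Ubd and Ifi30 values was not tested. Adjusted p for the genes named from both lists was at least 0.280.

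No difference was detected in the interferon genes themselves. Of the 7 measured, 0 passed an unadjusted p under 0.05 in limma's fit, and all 7 differences lay between 0.05 and 0.51, against a median of 0.21 for all genes in the dimmer 50% of probe sets and 0.16 for all genes. Ifnb1 read 4.28 and 4.18 on the arrays labelled deficient and 3.96 and 3.96 on the control arrays, a difference of 0.27 (SE 0.14). Ifng read 5.25 and 5.36 on the arrays labelled deficient and 5.04 and 5.07 on the control arrays, a difference of 0.25 (SE 0.14). Ifne, Ifna4, Ifnk and Ifnl2 differed by 0.51 (SE 0.23), 0.26 (SE 0.15), 0.17 (SE 0.17) and 0.16 (SE 0.20).

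**Figure D5:**
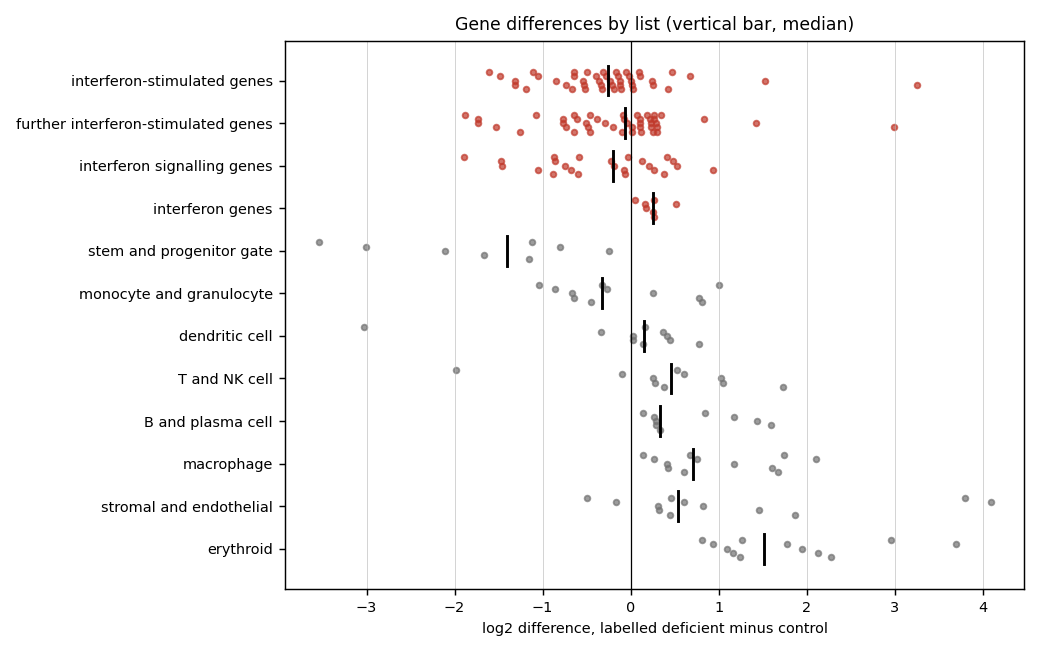
Log2 differences, arrays labelled deficient minus control, of single genes in each list. Each point is a gene, vertical bars are list medians, the interferon lists are red and the marker lists grey. The median of the 44 interferon-stimulated genes is −0.26 and that of the interferon genes 0.25, while the medians of the stem and progenitor and the erythroid lists are −1.41 and 1.51.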

How the data were processed

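RNA of 4 samples was measured on 4 arrays, 1 value per probe set. The authors deposited log2 values, made with RMA and Partek per the submitters' processing notes, in which no version is named. Array medians ran from 5.93 to 6.01 on the arrays labelled deficient and from 5.87 to 5.91 on the control arrays, and the values were used as deposited. Array data carry no read depth, and the number of arrays limits the precision. Of 35556 probe sets 21789 had 1 gene symbol, 1621 several and 12146 none, with symbols updated by Entrez number through the RefSeq table of GRCm38.p6. A gene with several single-gene probe sets was represented by the brightest of them.

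limma 3.58.1 in R 4.3.3 (lmFit, eBayes) was fitted over all probe sets with a single term, genotype, and p-values adjusted by Benjamini and Hochberg's method across all probe sets, and it was tested on simulated data. Differences are means of the arrays labelled deficient minus control means, with limma's SE. The other settings tried are given at the end. Same-numbered arrays deviated from their group means with a correlation of −0.0883, and with 2 pairs and no shared animal or batch in the labels the numbers were not taken to pair samples.

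All 49 genes were to be named whatever their values, and from other lists Jak1, Tyk2, Irf3, Irf8 and up to 6 genes with the smallest unadjusted p. The genes, lists and printed promoters were chosen with earlier results of these data known. Marker genes named are examples from their lists. Python 3.11.15 and matplotlib 3.10.9 drew the figures.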

Additional observations from a re-analysis of the deposited data

How the results depend on the processing

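No probe set passed an adjusted p under 0.05 in any of the alternatives run. The 10 interferon-stimulated genes lower at an unadjusted p under 0.05 became 6 with a replicate block and 6 without the dimmer 50% of probe sets, where 32 of the 44 genes were fitted, and 6 to 8 with 1 array left out, but 13 after cyclic loess and 11 after subtraction of column medians. The 2 higher genes stayed 2 to 3 throughout. The median difference of the 44 genes, −0.26, became −0.41 after cyclic loess, which moved the median of all genes from 0.16 to −0.00067, so that relative to all genes it was −0.42 as deposited and −0.41 after loess. The split over all probe sets, 1865 lower and 2360 higher, turned to 2349 and 1191 after cyclic loess, 2185 and 1537 after subtraction of column medians, 1666 and 1341 with a replicate block and 1348 and 964 without the dimmer 50%. With 1 array left out it ran from 1590 to 2295 lower and from 714 to 2198 higher. Of the 12 genes at an unadjusted p under 0.05, 0 changed sign in any alternative. Among all 44 genes 4 changed sign after cyclic loess (Bst2, Oas1a, Rsad2 and Tlr3), 3 after subtraction of column medians (Bst2, Oas1a and Tlr3) and up to 10 with 1 array left out. Interferon signalling genes counted 7 lower and 2 higher, against 4 and 1 with a trended robust prior, 1 higher with a replicate block, and 3 to 9 lower and 1 to 2 higher with 1 array left out. Further interferon-stimulated genes counted 10 lower and 3 higher, against 6 lower with a trended robust prior, and 4 to 7 lower and 1 to 4 higher with 1 array left out. With an array left out, the lone array was assumed to vary like the other group, and the cause of these shifts was not tested.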

Other observations

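Gabpa lies on chromosome 16, as do 7 of the measured interferon-stimulated genes (Ifnar1, Ifnar2, Mx1, Mx2, Rtp4, Parp9 and Parp14). All 7 had differences below 0, from −1.32 for Ifnar2 to −0.02 for Mx1, with a median of −0.54. Of the 44 measured genes 32 were below 0. Rtp4 turned to 0.18 without control replicate 1 and to 0.28 without deficient replicate 2. Mx1 turned to 0.01 without control replicate 1 and to 0.02 without deficient replicate 1. Of the 7 genes 2 (Ifnar2 and Parp9) were lower at an unadjusted p under 0.05 in limma's fit. Over all 649 genes measured on chromosome 16 the median difference was 0.14, with 231 below 0 and 418 above. By the same rule 7.86% of them were lower, against 6.37% of all 19920 genes. The stock was backcrossed for 4 generations, and the part of alleles linked to the targeted locus in these values was not tested.

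Of the neighbouring pairs among the 49 genes, 7 had both members measured with no gene, or 1, between them and are given here side by side, with no test of the difference within a pair. Oasl2 and Oasl1 differed between genotypes by −1.32 and 0.42 (the second turned to −0.18 without control replicate 1 and −0.02 without deficient replicate 1), Parp9 and Parp14 by −1.19 and −0.33, Ifnar2 and Ifnar1 by −1.32 and −0.67, Ifitm1 and Ifitm3 by −0.50 and −0.39, Ifit2 and Ifit3 by −0.52 and −0.64, Oas2 and Oas3 by 0.24 and 0.25, and Cmpk2 and Rsad2 by 0.47 and 0.09. Within a group, the 2 arrays differed by over 1 on the log2 scale for Ifnar2, Irf7 and Rtp4 on the arrays labelled deficient and for Gbp3, Oasl1 and Rtp4 on the control arrays. For 26 of the 44 genes the difference between genotypes was smaller than the wider gap within a group. The same share over all genes was not counted, so this is not shown to be particular to these genes.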
